A study of Mus musculus with 4 samples.

Results

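The MHC class I presentation genes are 10 genes whose products make up, load or switch on the class I antigen presentation pathway. They were taken by symbol (B2m, H2-D1, H2-K1, H2-T23, Tap1, Tap2, Tapbp, Psmb8, Psmb9 and Nlrc5) from a single-cell RNA count table of 27998 genes, in which all 10 have a row. The table comes from mouse MLL-AF9 leukaemia, an acute myeloid leukaemia driven by a retrovirally expressed fusion oncogene, and from cells sorted from bone marrow for the GFP that marks the transduced cells. The donor c-Kit+ marrow cells were Hif-1alphaLox/Lox and carried CreERT2, a Cre that tamoxifen activates in any cell that makes it, and the primary leukaemias were passed on to further mice. The 4 samples, 1 of each group, were Hif-1a wt with PBS, Hif-1a KO with PBS, Hif-1a wt with chemotherapy and Hif-1a KO with chemotherapy. All mice were C57BL6 and 11 weeks old. All groups share the MLL-AF9 fusion, the floxed gene and the CreERT2. Tamoxifen (1 mg) or its vehicle was given over 5 days, from 10 days after the transplant. Chemotherapy was cytarabine (100 mg/kg, 5 days) combined with doxorubicin (3 mg/kg, 3 days), and cells were sorted 3 days after its end. Libraries were 10x Chromium 3' V2, which tags the end of each transcript with a unique molecular identifier (UMI).

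Cell barcodes carry 1 of 4 suffixes (1 to 4), and no source used here links a suffix to its sample. Each suffix therefore has its own value below, no comparison of genotype or treatment was made, and there are no p-values. The kept cells numbered 5456 (1174, 1251, 1625 and 1406 in suffixes 1 to 4) with 7644436 to 9932649 UMIs per suffix. Before filtering, 17 barcode sequences occurred in more than 1 suffix, and 15 did so among the kept cells. Levels are in CPM, the share of a gene in all UMIs of the same cells on the usual counts scale. Intervals are at 95%, cover counting error only and do not cover differences between animals or libraries. Hif1a, the targeted gene, had 26.5 to 38.5 CPM by suffix. The labels do not say which exons are deleted, and counts of the 3' end can persist after a deletion, so this level does not check the genotypes. T and NK cell markers were at 0 to 0.234 CPM by suffix and erythroid markers at 2.52 to 4.33 CPM. B cell markers were at 67.2 to 89.0 CPM, stromal and endothelial markers at 80.0 to 97.2 CPM and dendritic cell markers at 121 to 182 CPM.

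Class I molecules display peptides from inside the cell to CD8 T cells and to natural killer cells. A polymorphic heavy chain pairs with beta-2 microglobulin in the endoplasmic reticulum, where the TAP transporter delivers peptides cut by the proteasome and tapasin holds the empty molecule in place for loading. Interferons raise the pathway, exchange constitutive proteasome subunits for those of the immunoproteasome and induce NLRC5, the transactivator that acts on class I promoters together with the RFX complex, CREB-family factors and NF-Y. In acute myeloid leukaemia the pathway is of interest because T and natural killer cells read class I on the leukaemia cell.

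Positions are those of GENCODE M21 on GRCm38. B2m lies on chromosome 2 (122147686 to 122153083, plus strand) and Nlrc5 on chromosome 8 (94434356 to 94527272, plus strand). The other 8 lie in the mouse MHC on chromosome 17. Psmb9, Tap1, Psmb8 and Tap2 are neighbours there, between 34181987 and 34216321. Tapbp (33915899 to 33929292) and H2-K1 (33996017 to 34000347) lie on one side of them, and H2-D1 (35262730 to 35267499) and H2-T23 (36029773 to 36032855) on the other.

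The promoter windows of B2m and H2-K1 are shown because these genes, with H2-D1, were the members that varied together most across cells. Each is the stretch of 250 bases before the transcription start in RefSeq (GRCm38.p6), 5′ to 3′ on the gene's strand. Capitals mark motif matches found by script. The B2m window is chr2:122147437-122147686 (plus strand) and the H2-K1 window chr17:34000348-34000597 (minus strand).
B2m: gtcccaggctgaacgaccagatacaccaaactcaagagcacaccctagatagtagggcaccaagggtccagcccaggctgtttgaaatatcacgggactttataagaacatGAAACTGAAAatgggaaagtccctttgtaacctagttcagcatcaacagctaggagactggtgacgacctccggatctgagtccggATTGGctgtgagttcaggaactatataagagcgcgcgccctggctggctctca
H2-K1: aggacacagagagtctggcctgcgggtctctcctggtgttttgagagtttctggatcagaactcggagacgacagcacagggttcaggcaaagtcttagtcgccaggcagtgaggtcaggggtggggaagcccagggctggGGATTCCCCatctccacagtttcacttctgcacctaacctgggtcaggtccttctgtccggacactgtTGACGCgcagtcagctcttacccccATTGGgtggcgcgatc

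Motifs were searched on both strands: the interferon-stimulated response element core GAAANNGAAA, held by 2.98% of the 32851 promoter windows of the same length in the table, the gamma-activated site TTCNNNGAA (7.02%), a kappaB-like site GGATTCCCC (0.240%), the CCAAT box that NF-Y binds (33.9%), and TGACGC, a CREB-type partial site (6.12%). In the B2m window the capitals are the interferon element, 139 to 130 bases before the start, and a CCAAT box on the opposite strand at 53 to 49. In the H2-K1 window they are the kappaB-like site at 109 to 101, TGACGC at 41 to 36 and a CCAAT box on the opposite strand at 16 to 12. No 2 of these matches overlap. A match describes letters in this window and is not evidence of binding.

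Shorter stretches are given for H2-D1, H2-T23 and Psmb8, with the motif in capitals and 10 bases on either side, since GENCODE places the windows of H2-D1 and Psmb8 whole, and that of H2-T23 in part, inside the gene. The coordinates are chr17:35262915-35262943 (plus strand), chr17:36032806-36032835 (minus strand) and chr17:34198088-34198116 (plus strand).
H2-D1: ccagggctggGGATTCCCCatctcctcag
H2-T23: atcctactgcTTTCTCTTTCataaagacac
Psmb8: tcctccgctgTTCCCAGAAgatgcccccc
H2-D1 had the same set as H2-K1, and the stretch of 29 bases around the kappaB-like site was identical at 28 positions between them. H2-T23 had the interferon element (on the opposite strand, 124 to 115 bases before the start) and a CCAAT box, as B2m did. Psmb8 had the gamma-activated site at 97 to 89 bases before the start and no CCAAT box. Tap1, Tapbp and Psmb9 had only the CCAAT box among these motifs. GENCODE places the windows of Tapbp and Psmb9 whole inside the gene as well. Psmb9 and Tap1 start on opposite strands with 225 bases between the RefSeq starts and share that stretch. In GENCODE, Psmb9 (to 34187764) reaches past the start of Tap1 (34187553). No window was matched for Tap2 or Nlrc5.

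Summed over the 10 genes, class I transcripts made up 7151 CPM in suffix 1, 7492 in suffix 2, 5015 in suffix 3 and 5531 in suffix 4. Suffix 2 was 1.49 times suffix 3 (interval 1.48 to 1.51). B2m gave 45.2% of the summed UMIs, so the sum mostly follows B2m and the heavy chains. The members did not all follow this order. A spread of this size was ordinary for the table: the median ratio of highest to lowest suffix was 1.404 over 8244 genes with a mean of at least 5 CPM (measured genes, ratio of CPM + 1) and 1.43 over the 9 measured members.

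B2m, the light chain shared by all class I molecules, was at 3252, 3545, 2169 and 2439 CPM in suffixes 1 to 4, and no 2 intervals overlapped. H2-D1, a classical heavy chain, was at 1381, 1494, 1143 and 1248 CPM, again with no overlapping intervals. H2-K1, the other classical heavy chain here, was at 728, 829, 579 and 634 CPM. All 3 thus had the order 2, 1, 4, 3. H2-T23, which encodes the heavy chain of Qa-1, a non-classical molecule read by natural killer receptors, was at 39.8, 41.3, 43.2 and 35.0 CPM. Its highest value was in suffix 3, where B2m was lowest, and the intervals of suffixes 1 to 3 overlapped one another (35.4 to 47.5 CPM in all). That of suffix 4 (31.1 to 39.166) overlapped those of suffixes 1 and 2 and ended just below that of suffix 3 (from 39.2).

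Among the genes for peptide transport and loading, Tap2 stood apart. Tap2, one subunit of the TAP transporter, was at 144, 101, 63.0 and 80.5 CPM. Suffix 1 was 2.28 times suffix 3 (interval 2.07 to 2.52), and Tap2 was the 1 measured member with a ratio over 2, against 10.7% of the measured genes. Tap1, its partner, was at 72.3, 74.5, 62.7 and 65.1 CPM, with a highest-to-lowest ratio of 1.19 (interval 1.06 to 1.33). Tapbp, which encodes tapasin, was at 127, 128, 143 and 139.6 CPM, with the higher pair in suffixes 3 and 4 and a ratio of 1.13 (1.04 to 1.22).

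The immunoproteasome subunits had another order. Psmb8 (LMP7) was at 1109, 1008, 628 and 673 CPM and Psmb9 (LMP2) at 297, 268, 183 and 216 CPM. Both were highest in suffix 1 and lowest in suffix 3, by 1.76 (1.71 to 1.82) and 1.62 (1.52 to 1.73) times, with no overlapping intervals among the suffixes. Nlrc5, the transactivator, was barely counted: 52 UMIs in 52 of the 5456 cells, at 1.96, 2.28, 1.01 and 0.936 CPM from 15, 19, 10 and 8 UMIs. All 4 intervals overlapped. The ratio of its highest to its lowest suffix, 2.44, had an interval of 1.02 to 6.44, so counts of this size place Nlrc5 only loosely.

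**Figure D1:**
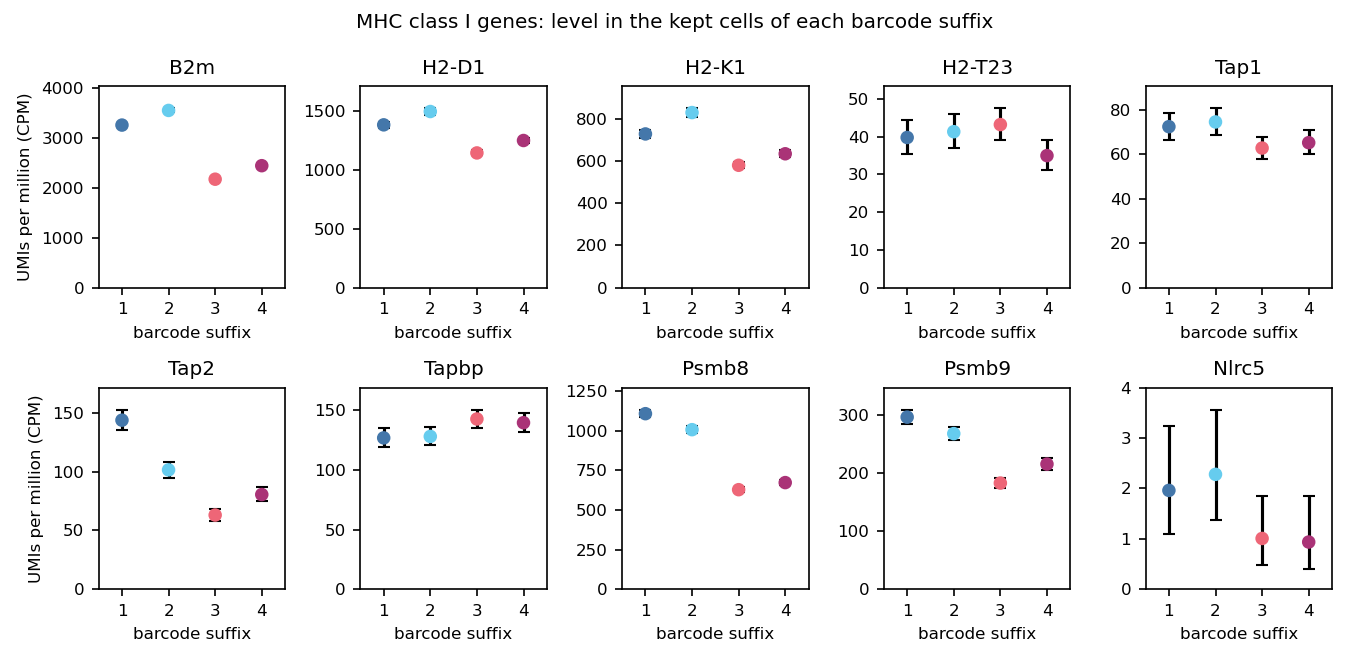
Level of each of the 10 class I genes in the kept cells of each barcode suffix, in CPM (linear axes from 0), with exact Poisson 95% intervals. B2m, H2-D1 and H2-K1 are highest in suffix 2, Tap2, Psmb8 and Psmb9 in suffix 1, and H2-T23 and Tapbp in suffix 3, while Nlrc5 rests on 52 UMIs in all.

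The suffixes hold different mixtures of cells, so the levels were also read within clusters. Cells were grouped into 19 clusters with the members and 32 other class I pathway genes left out of the clustering. Of these, 4 clusters had at least 30 cells in every suffix: clusters 1, 3 and 6, led by cell cycle genes, and cluster 8, led by Gsn and Nfil3. The summed level was 7766, 7898, 5044 and 5752 CPM in suffixes 1 to 4 of cluster 1 and 9111, 9889.9, 6354 and 6624 CPM in cluster 8. Suffix 2 was highest and suffix 3 lowest in each of the 4 clusters, by 1.54 to 1.68 times, which is at least as wide as the ratio over all cells. Tap2 kept suffix 1 highest and suffix 3 lowest in all 4 (289, 172, 110 and 130 CPM in cluster 8). H2-T23 did not keep its order over all cells, since suffix 3 was highest in none of the 4.

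**Figure D2:**
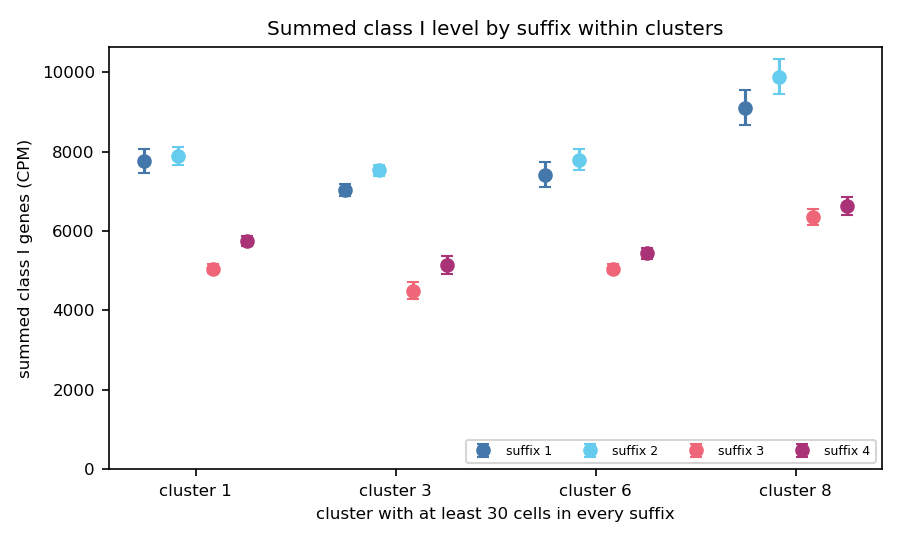
Summed CPM of the 10 genes in each suffix within the 4 clusters that hold at least 30 cells in every suffix, with exact Poisson 95% intervals on a linear axis from 0. Within each cluster suffixes 1 and 2 lie above suffixes 3 and 4, from 4489 CPM in suffix 3 of cluster 3 to 9889.9 CPM in suffix 2 of cluster 8.

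Stages were named from marker genes. Clusters 5, 12 and 13 were granulocyte precursor-like (Ms4a3 raised in all 3, Mpo, Ctsg and Nkg7 in 5 and 13, Elane, Cebpe and Gfi1 in 12 and 13), cluster 11 monocyte-like (14 of 18 monocyte markers raised, with Csf1r, Ccr2 and Fn1), clusters 14 and 18 neutrophil-like (Ngp, Camp, Ltf, S100a8) and cluster 10 eosinophil-like (Prg2, Prg3, Siglecf). The remaining 12 clusters stayed unnamed. With the suffixes summed, the level over the 19 clusters ran from 3201 CPM in neutrophil-like cluster 14 to 9195 in cluster 16, a ratio of 2.87. In the order of levels 10 of the 18 neighbouring pairs had overlapping intervals. The lowest 5 clusters were 14 (neutrophil-like), 12 (granulocyte precursor-like, 3380 CPM), 18 (neutrophil-like, 3537), 10 (eosinophil-like, 4319) and 13 (granulocyte precursor-like, 5046). This order also carries the suffix difference, since clusters sit in different suffixes. Cluster 5 (granulocyte precursor-like) was at 6391 CPM with nearly all of its cells in the higher suffixes 1 and 2, where only cluster 13 of 10 clusters (suffix 1) and clusters 13 and 9 of 9 clusters (suffix 2) with 30 cells or more were lower.

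The highest sums over all suffixes were those of clusters 16, 17 and 4. Within single suffixes cluster 8 was highest in suffixes 1, 2 and 4 (9111, 9889.9 and 6624 CPM) and second in suffix 3 (6354), among clusters with 30 cells or more. Cluster 16 (48 cells, 24 each in suffixes 3 and 4, too few for a value by suffix) was led by Ifit3, Irf7, Isg15 and Rsad2, genes known to be induced by interferon, and had 13 raised monocyte markers. With suffixes summed it was highest of all clusters for H2-D1 (2290 CPM, interval 2066 to 2531), H2-T23 (138, 87.4 to 207), Tap1 (239.8, 171 to 327), Tapbp (324, 243 to 422) and Psmb9 (384, 295 to 490). Tap1 was next highest at 124 CPM in cluster 17, and the 2 intervals (171 to 327 and 92.1 to 163) did not overlap. The intervals of H2-T23 (cluster 8 next, 66.9 to 97.4) and Psmb9 (cluster 17 next, 299 to 417) did. Those of Tapbp overlapped narrowly, with cluster 15 next (168.8 to 243.48) and cluster 16 from 243.17. Psmb8 (713 CPM) and Tap2 (95.9) of cluster 16 were in the middle of the order. Irf7 was at 1091 CPM in this cluster, highest of the 19, while Ifng and Ifnb1 had 0 UMIs in all kept cells. Nlrc5 had 2 UMIs there (11.99 CPM, interval 1.45 to 43.3), too few to place it. The dendritic cell marker list was also highest in this cluster (1702 CPM), and the part of such cells in its class I level was not tested.

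Cluster 17 (47 cells, of suffixes 1 and 2) was led by mitotic genes such as Ube2c and Plk1 and had 6 raised stem and progenitor markers. With suffixes summed it was highest for B2m (4279 CPM, interval 4082 to 4484), H2-K1 (1075, 977 to 1179.5), Tap2 (226, 182 to 276) and Psmb8 (1300.2, 1192.5 to 1415). Each of these intervals overlapped that of the next cluster, which was cluster 16 for H2-K1 and cluster 4 for the others. H2-T23 (34.0 CPM) and Tapbp (124) of cluster 17 were in the middle. Within suffix 1, where it had 34 cells, cluster 8 was above it for B2m (4287 against 4199 CPM) and Tap2 (289 against 242.5), and cluster 1 for Psmb8 (1296 against 1289). Cluster 4 (396 cells), led by Cpa3, Npy and Mcpt8 with 8 raised stem and progenitor markers, followed with 8674 CPM summed, 4142 CPM of B2m and 180.3 CPM of Tap2. Of its cells 239 and 113 were in suffixes 1 and 2, the suffixes with the higher summed level. Within suffixes 1, 2 and 3 the median log2 ratio of cluster 4 to the other cells was 0.42 for B2m and 0.64 for Tap2.

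**Figure D3:**
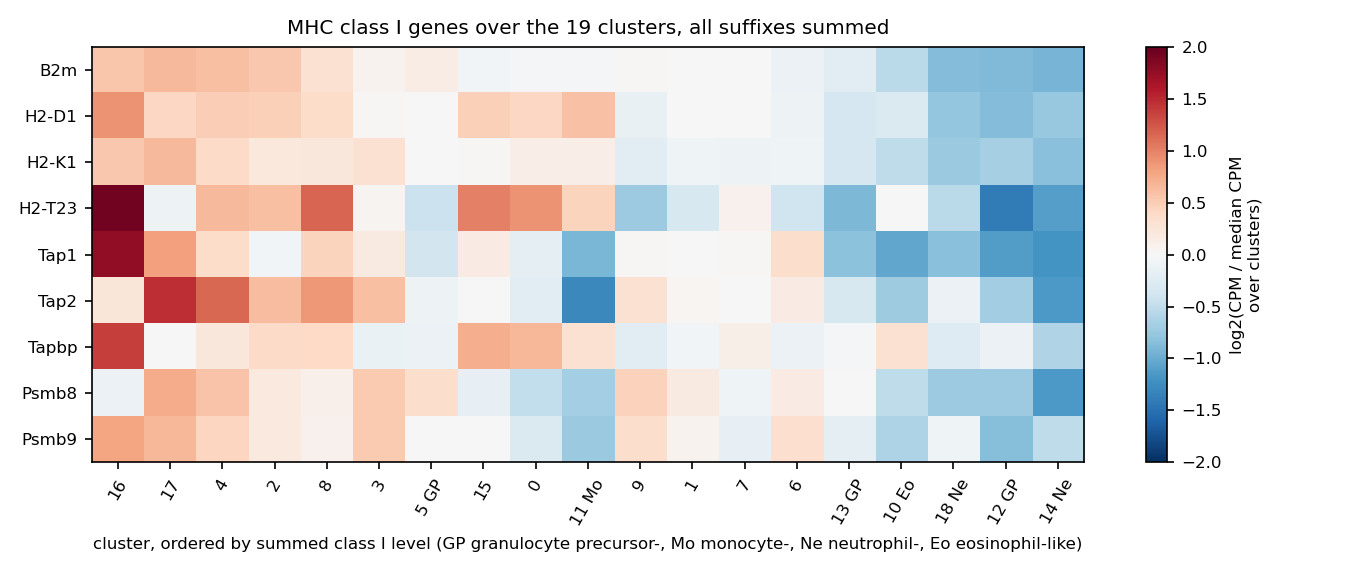
Level of the 9 measured class I genes (rows) in the 19 clusters (columns, ordered by summed level from highest to lowest, all suffixes summed), as log2 of CPM over the gene's median CPM across clusters. Cluster 16 is reddest for H2-T23 and Tap1, cluster 17 for Tap2, the monocyte-like cluster 11 is red for H2-D1 and blue for Tap2, and the granulocytic clusters 10, 12, 14 and 18 at the right are mostly blue.

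Each of the 3 stages was set against the remaining cells with its suffix, which keeps the suffix difference out of the ratio. A gene counts as higher or lower here if it differs at least 1.2-fold, goes the same way in every suffix with at least 30 cells on both sides, and has a pooled counting interval that excludes a ratio of 1. This is a rule of size and no test. The pooled interval sums suffixes of unequal level. An interval stratified by suffix, chosen after seeing the data, gave the same call for each of the 9 members in all 3 stages. Nlrc5 was under 5 CPM and was not counted.

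Granulocyte precursor-like cells had lower class I transcripts throughout. Of the 9 measured members 9 were lower and 0 higher, against 19.7% of 8244 measured genes lower and 6.02% higher (21.2% and 6.27% with the stratified interval). Their median log2 ratio was -0.61, with -0.15 for all measured genes, and the gap of -0.46 was the same with median of ratios size factors and -0.47 with TMM factors. With either of these scalings 8 members were lower, Tapbp being the one that lost its call. The interval of the rule stayed on UMI totals there, so only size and direction were rechecked. The summed level was 5578, 6222, 3092 and 3464 CPM in these cells of suffixes 1 to 4 and 7555, 8025, 5171 and 5652 CPM in the other cells, giving ratios of 0.738 (0.722 to 0.755), 0.775 (0.761 to 0.790), 0.598 (0.573 to 0.624) and 0.613 (0.583 to 0.644). Clusters 5 and 13 held nearly all of the class in suffixes 1 and 2, and cluster 12 most of it in suffixes 3 and 4. The median over members was -0.28 for cluster 5 alone, -0.58 for cluster 13 and -0.71 for cluster 12. Over all measured genes it was -0.10, -0.13 and -0.24 in these clusters. Psmb8 in cluster 5 (-0.11) and Tapbp in cluster 13 (-0.11) were near that background. Cluster 12 also had 3 raised neutrophil and 2 raised eosinophil markers, at 18332 and 144 CPM summed over each list, and shared Mogat2, Clec4a2 and Cd63 among its leading genes with eosinophil-like cluster 10. The part of these in its values was not tested.

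The size of the difference varied over the pathway. H2-T23 was lowest, at 29.4, 21.5, 13.4 and 12.7 CPM in the precursors against 42.4, 49.6, 45.6 and 36.3 CPM in the other cells (median log2 ratio -1.305). Its values in suffixes 3 and 4 rest on 10 and 6 UMIs. Tap2 (85.0, 65.3, 48.3 and 44.5 CPM against 158.9, 117, 64.2 and 82.6) and Tap1 (42.8, 54.4, 22.8 and 42.4 against 79.9, 82.9, 65.96 and 66.5) had medians of -0.85 and -0.76. The interval of the Tap2 ratio in suffix 3 included 1 (0.522 to 1.05). The chains were nearer to the middle: B2m at -0.58, H2-D1 at -0.61 and H2-K1 at -0.48, each below 0 in 4 of 4 suffixes. Psmb9 was at -0.63. Psmb8 (-0.43) and Tapbp (-0.27) differed least, and the intervals of Tapbp included a ratio of 1 in suffixes 1 and 2 (0.793 to 1.097 and 0.770 to 1.01). The call was lost in 9 of 14 alternative settings for Tapbp and in 4 of 14 for Psmb8, with no change of sign.

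In monocyte-like cells, which are cluster 11 alone, members differed in direction. This class could be read only in suffixes 3 and 4 (107 and 84 cells). Of the 9 measured members 2 were higher (22.2%) and 4 lower (44.4%), against 17.5% and 20.7% of 8204 measured genes (19.1% and 18.2% with the stratified interval). The share called higher was thus near that of all measured genes. The median was 0.14, with -0.14 for all genes. It was -0.17 with Nlrc5 included and -0.0032 when clusters led by cell cycle genes were left out of the other cells, so the median has no stable sign. H2-D1 was at 1784 and 1905 CPM in monocyte-like cells against 1113 and 1222 in the other cells, ratios of 1.60 (1.49 to 1.72) and 1.56 (1.44 to 1.69). H2-K1 was at 714 and 785 CPM against 573 and 628, with a median log2 ratio of 0.32, and lost its call in 5 of 13 alternative settings. B2m (0.20), H2-T23 (0.26) and Tapbp (0.14) had values above 0 in both suffixes but did not meet the rule. H2-T23 met it in 3 of 13 alternative settings (0.92 with no filter on cells) and Tapbp in 1 (0.51, also with no filter). With no filter all barcodes were clustered and named anew, so the class can hold other cells than cluster 11. The parts of the filter and of the new clusters in these values were not tested.

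The members that supply peptides went the other way in this cluster. Tap2 was at 35.7 and 32.7 CPM in monocyte-like cells against 64.3 and 82.4 CPM (median log2 ratio -1.07), from 16 and 11 UMIs. Tap1 was at 38.0 and 32.7 against 63.9 and 66.5 CPM (-0.87), from 17 and 11 UMIs. Psmb8 was at 511 and 437 against 634 and 683 CPM (-0.48), and Psmb9 at 136 and 128 against 185 and 219 CPM (-0.61). The call was lost in 3 of 13 settings for Tap1, 1 for Tap2, 2 for Psmb9 and none for Psmb8. With no filter on cells and clusters made anew, Tap2 stood at -0.22, Tap1 at -0.17 and Psmb9 at -0.11. With the tenth of cells richest in monocyte markers they stood at -0.34, -0.29 and -0.19. Neutrophil markers summed to 32289 CPM in this cluster and macrophage markers to 2662 CPM, with 5 and 7 of 16 raised, and their part in these values was not tested. Over the 19 clusters, cluster 11 was second highest for H2-D1 (1851 CPM) and lowest for Tap2 (33.5 CPM). Clusters 0 and 15, unnamed with 10 and 11 raised monocyte markers, did not share all of this. Against other cells of the same suffix, Tap1 was at -0.10 and 0.28 there and Tap2 at -0.05 and 0.30. Psmb8 was at -0.33 and 0.07 in them and Psmb9 at -0.16 and 0.21.

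Neutrophil-like cells were low for most members. In suffixes 3 and 4 (106 and 85 cells) 8 of 9 measured members were lower and 0 higher, against 37.6% and 8.07% of 8204 measured genes (35.6% and 8.68% with the stratified interval). The median of the members was -0.71 and that of all genes -0.44, a gap of -0.27, and 33.4% of measured genes lay below the members' median. Summed neutrophil markers reached 239600 CPM in cluster 14 (173620 in cluster 18), and a share of that size lowers the CPM of the other genes. With median of ratios size factors in place of totals the members' median was -0.37 and that of all genes -0.12. The count lower stayed at 8, but the interval of the rule was still taken on totals. This count thus rechecks size and direction only. The summed level was 2997 and 3600.0 CPM in these cells against 5163 and 5648 CPM, ratios of 0.581 (0.555 to 0.607) and 0.637 (0.607 to 0.668).

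B2m was at 1342 and 1545 CPM in neutrophil-like cells against 2229 and 2493 CPM (median log2 ratio -0.71), and H2-D1 at 669 and 768 against 1178 and 1277 (-0.77). H2-K1 (-0.67), Tap2 (-0.68), Tapbp (-0.69), Psmb8 (-0.81), Tap1 (-0.98) and H2-T23 (-1.04) completed the 8. H2-T23 rests on 12 and 10 UMIs and Tap1 on 18 and 20. Psmb9 was the exception, at 134 and 209 CPM against 186 and 216 CPM: the value was -0.47 in suffix 3 and -0.05 in suffix 4, and its median turned above 0 with either alternative scaling (0.08 and 0.03). In 5 of 14 alternative settings it was called lower, down to -0.50 with no filter on cells. When the stage was taken as the tenth of cells richest in neutrophil markers, H2-D1 and Tapbp lost their calls, and Tapbp stood at 0.02. Tap1 lost its call at 2000 UMIs per cell.

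**Figure D4:**
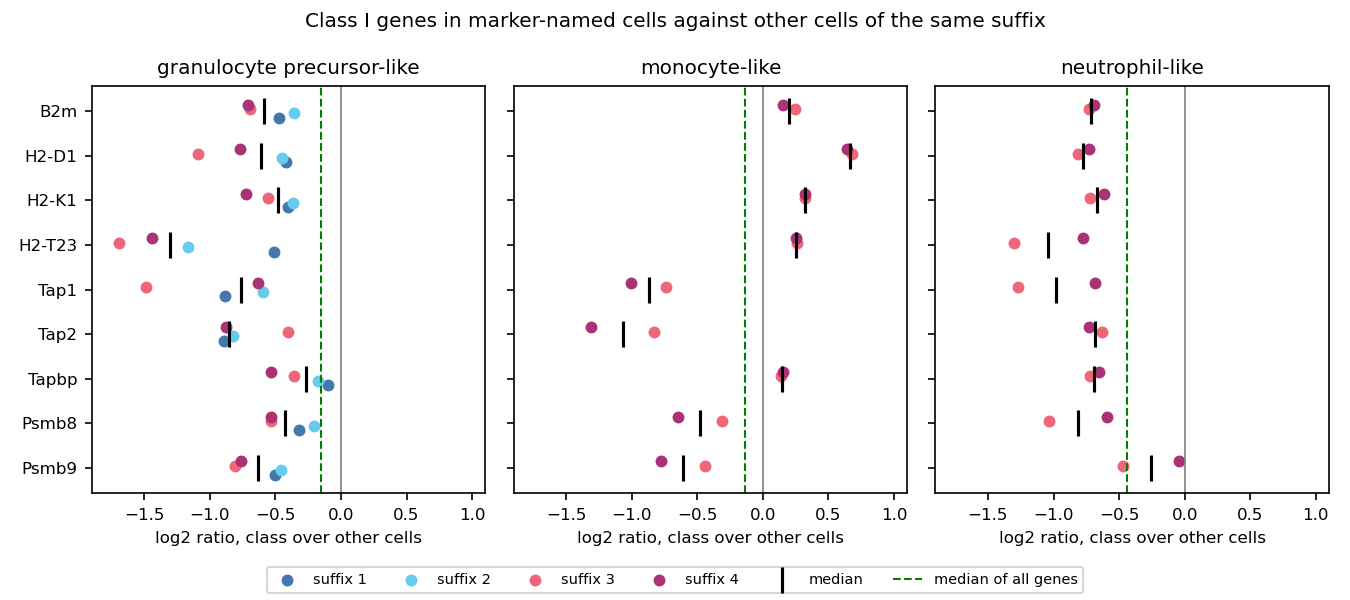
Log2 ratio of the level in each stage over the remaining cells of that suffix for the 9 measured class I genes, with 1 point per suffix, a bar for the median of the suffixes and a dashed line for the median of all measured genes. All 9 medians lie left of the dashed line in granulocyte precursor-like cells and 8 of 9 in neutrophil-like cells. In monocyte-like cells B2m, H2-D1, H2-K1, H2-T23 and Tapbp lie to the right of it and Tap1, Tap2, Psmb8 and Psmb9 to the left.

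A list of 32 further pathway genes (other class I heavy chains, chaperones of loading, proteasome subunits, interferon receptors and regulatory factors) gave 28 measured genes. In granulocyte precursor-like cells 10 were lower (35.7%) and 1 higher (3.57%), beside 19.7% and 6.02% of all measured genes, with a median of -0.28 beside -0.15. With the stratified interval H2-Q4 and H2-Q7 were lower as well. The lower ones included 3 non-classical heavy chains (H2-Q6, H2-T22 and H2-M3), the other immunoproteasome subunit Psmb10, the transcription factors Irf1 and Irf2, and the interferon receptor chains Ifngr2, Ifnar1 and Ifnar2. The 2 smallest values were those of H2-Q6 (-1.49, from 2 and 0 UMIs in suffixes 3 and 4, with -0.90 and -0.65 in suffixes 1 and 2) and Ifngr2 (-1.39). The 2 largest were those of Ifngr1 (0.71), the ligand-binding chain of the interferon gamma receptor and the 1 gene called higher, and Rfx5 (0.30), which did not meet the rule. The 2 chains of the interferon gamma receptor thus differed in direction in these cells, with Ifngr1 at 526, 477, 439 and 501 CPM and Ifngr2 at 32.6, 26.8, 16.1 and 19.1 CPM in suffixes 1 to 4.

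In monocyte-like cells 7 listed genes were higher (25%) and 5 lower (17.9%), shares near the 17.5% and 20.7% of all measured genes (median -0.06). All 4 interferon receptor chains were among the higher ones, with Ifngr2 (1.15) and Ifnar1 (1.06) the largest, together with the kinase Jak1, Irf2 and Psmb10. The lower ones were Calr (-1.65), Canx and Pdia3, chaperones of class I folding, and Psmb5 and Psmb7, constitutive proteasome subunits. Rfx5 had the smallest value (-1.83) but rests on 1 and 0 UMIs. In neutrophil-like cells 18 were lower (64.3%, beside 37.6% of all measured genes) and 0 higher (median -0.63, beside -0.44). H2-M3 (-2.73, from 5 and 1 UMIs) and Ifnar1 (-2.53, from 6 and 2 UMIs) were smallest, and Rfxank (0.61) and H2-Q4 (0.44) largest, neither of which met the rule.

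The members varied together weakly from cell to cell. For the 36 pairs of the 9 measured members, Pearson's r of log-normalised values was computed over the cells of each suffix and the median of the 4 suffixes taken. The median pair was at 0.086 (range 0.012 to 0.541). Over all pairs of measured genes it was 0.0031, and 0.022 over pairs of the 1348 genes at 100 CPM or more, a level that 6 members reached. The 3 closest pairs were those of the chains of the assembled molecule: B2m with H2-D1 (0.541, range 0.511 to 0.582 over suffixes), B2m with H2-K1 (0.430) and H2-D1 with H2-K1 (0.419). With the mean of each cluster removed they stood at 0.481, 0.407 and 0.400, so most of that covariation lay within clusters. At 2000 UMIs per cell they stood at 0.350, 0.263 and 0.235. The next pair, B2m with Psmb8, had only 0.161, and Psmb8 with Psmb9 had 0.155. Tap1 with Tap2, the 2 subunits of one transporter, had 0.071. Cells share library and depth, counts of the scarcer members are sparse, and weak values such as these are no finding.

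At the level of clusters the values of r were higher. A sum of many cells has less counting error than a single cell, so r over sums is not comparable with r over cells. Whether the members move together more closely between clusters than between cells was not tested. Over 42 sums of cells (17 clusters, each in the suffixes where it had at least 30 cells) the median pair had r = 0.653 (range -0.07 to 0.906), against 0.050 for all pairs of measured genes. Within single suffixes the median pair had 0.724, 0.723, 0.580 and 0.551 over 10, 9, 12 and 11 clusters. The background of 0.050 takes all 8244 genes at 5 CPM or more, of which 1348 reached 100 CPM, as 6 of the 9 members did. No background at the members' level or within suffixes was computed for these sums. The closest pairs lay within and between roles. Psmb8 with Psmb9 (0.906), Tap2 with Psmb9 (0.852), Tap2 with Psmb8 (0.834) and Tap1 with Tap2 (0.813) were close, as were B2m with H2-K1 (0.901), B2m with H2-D1 (0.866) and H2-D1 with H2-K1 (0.865). B2m was nearly as close to Tap2 (0.788), Psmb8 (0.776) and Tap1 (0.742). Tapbp did not follow the immunoproteasome (-0.02 with Psmb8 and -0.07 with Psmb9) and was nearest to H2-T23 (0.662). These sums share suffixes, depth and base composition of the libraries, and the values are descriptions with no p-value.

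**Figure D5:**
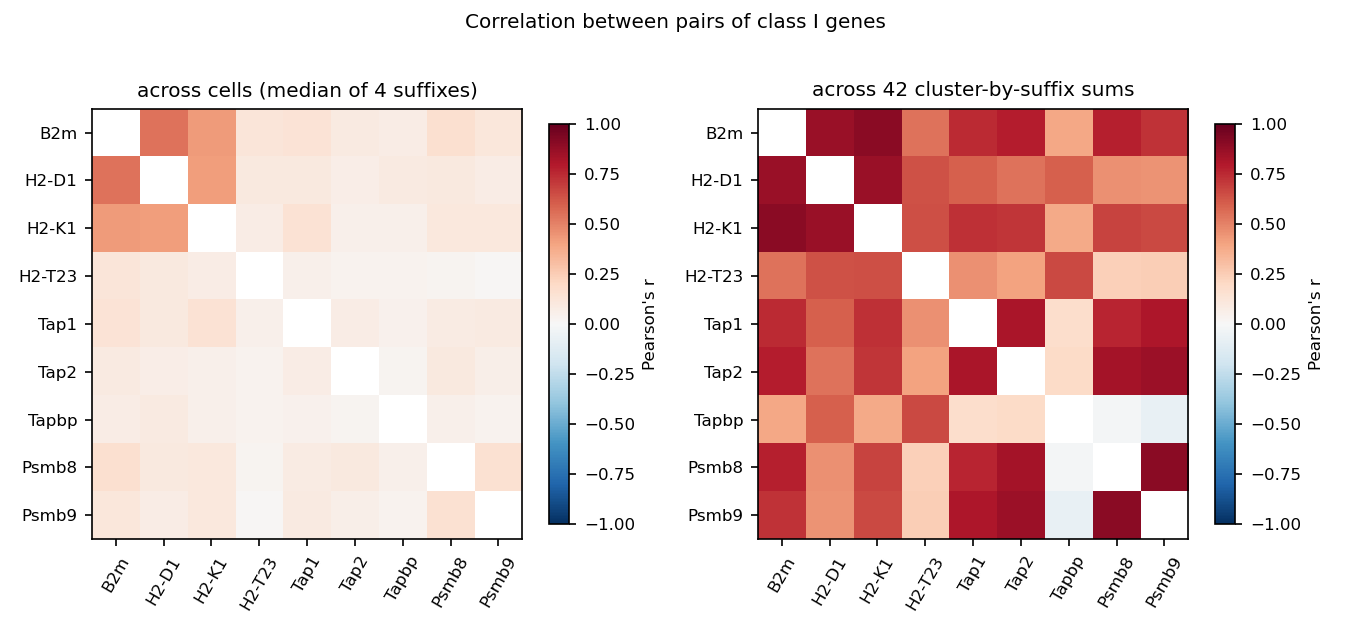
Pearson's r for each pair of the 9 measured class I genes, across single cells on the left (median of the 4 suffixes) and across 42 cluster-by-suffix sums on the right, on one colour scale from -1 to 1. On the left only the 3 pairs of B2m, H2-D1 and H2-K1 stand out (0.419 to 0.541), and on the right most pairs are red while Tapbp with Psmb8 and Psmb9 is near 0.

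The genes whose level over the 42 sums was most like that of the summed members were Psmd8 (r = 0.886), Prdx2 (0.857), Bphl (0.856), Zfp207 (0.847), Bad (0.847), Sfr1 (0.846), Tsg101 (0.843) and Nono (0.835), out of 4696 genes at 20 CPM or more, whose median r was 0.260. Psmd8, a subunit of the regulatory particle of the proteasome, ran from 113 to 402 CPM over the sums, and the summed members from 2975 to 9889.9 CPM. Within single suffixes its r was 0.893 to 0.922. The other 7 varied more there, for example Tsg101 from 0.557 to 0.924, and Prdx2 was at 0.722 to 0.813. None of the 8 is on the pathway list.

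Counts of some members are uncertain because other genes share their 3′ sequence. Of the 50-base words in the last 400 bases of the annotated transcripts, 36.2% for H2-T23, 10.2% for H2-K1, 10.1% for H2-D1, 4.56% for Tapbp and 3.53% for Tap1 also occur in transcripts of other genes, and 0 for the other 5. The antisense gene Gm20496 overlaps Psmb8 and Tap2 and Gm15821 overlaps Tap2 on the other strand. The sharing genes include members, with H2-D1 among those of H2-K1 and Tap2 the only one of Tap1. No source used here says how the deposited counts treated such reads, and their part in the correlations between members was not tested.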

How the data were processed

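The authors deposited 1 table of raw UMI counts (genes by cell barcodes), made with Cell Ranger 1.3 on mm10, per the submitters' processing notes. These name Seurat 2.3.4 and the series design text Seurat 1.4. No source used here names the annotation. The members, gene lists and markers were chosen with earlier results of these data known.

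Kept barcodes (5456 of 5664) had 500 UMIs or more, of which no more than 10% were mitochondrial. Kept cells were clustered on 2000 variable genes (members and pathway list left out), 30 principal components and a graph of 15 neighbours by the Leiden method (leidenalg 0.10.2, resolution 1). A cluster was named where at least 3 markers of one type were 2-fold or more above the other cells at 20 CPM or more, more than of any other type, and where its markers outnumbered those of each other type in the 10 top genes by fold. The names were thus rebuilt here. Scrublet (scanpy 1.11.5) marked 27 cells (0.495%), a share so low that it is taken not to have worked, and none were removed.

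Counts were summed per suffix, cluster or class and divided by their totals. Class ratios are log2 of (CPM + 1) over (CPM + 1), as the median over suffixes. A list's value is the median of its genes at 5 CPM or more on average. The size rule asks for 1.2-fold, 1 direction in every usable suffix (30 cells or more on both sides) and an interval over the summed suffixes that leaves out 1. Intervals are exact Poisson for CPM and exact conditional binomial for ratios, at 95%. A count of 0 allows 0.302 to 0.392 CPM per suffix (3 counts). Intervals of the single suffixes are printed. The stratified interval is that of the Mantel-Haenszel rate ratio over suffixes. The ratio code was tested on simulated data. Named genes are all 10 members, the 2 largest and 2 smallest pathway ratios per class, the 8 genes most like the summed members at 20 CPM or more, and leading genes of clusters. Genes that the text names beyond these (the other pathway genes called in a class, Hif1a, interferon genes of cluster 16) were chosen after their values were seen. Alternatives were other scalings (TMM from edgeR 4.0.16), filters, thinning, pseudocount and clusterings. For the stages, the setting with no filter on cells is also a new clustering.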

Additional observations from a re-analysis of the deposited data

Results flagged for a closer look

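Barcodes over the mitochondrial limit, which enter only the settings with no filter on cells, carried class I transcripts at a higher share than the kept cells. The 208 excluded barcodes had 13216 CPM summed over the 10 genes (interval 12867 to 13573), against 6216 CPM in kept cells, and a count of 0 there would allow 7.31 CPM. Of UMIs from genes outside the mitochondrion the values were 15605 and 6394 CPM. What these barcodes are was not tested.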

How the results depend on the processing

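The ratio of the highest to the lowest suffix for the summed members (1.49) kept suffixes 2 and 3 as the extremes in all 6 alternatives, with 1.39 by median of ratios size factors, 1.395 by TMM, 1.46 as a mean over cells and 1.44 at 2000 UMIs per cell. The granulocyte precursor-like median (-0.61) stayed below 0 in all 18 alternatives. Moves are judged here against the median half-width of the single members' pooled log2 intervals. The precursor median moved by more than that with no filter on cells (-0.35), a setting in which all barcodes were clustered and named anew. It also moved so with median of ratios size factors (-0.47), resolution 0.5 (-0.43) and cluster 5 alone (-0.28). The same held with pathway genes kept among the clustering genes (-0.35) and with cell cycle, ribosomal and mitochondrial genes left out of them (-0.49). The monocyte-like median (0.14) changed sign with no minimum on members (-0.17) and without clusters led by cell cycle genes among the other cells (-0.0032), and kept it in the other 13. Among these, a mean in place of the median over suffixes could not differ, since only suffixes 3 and 4 were usable. With clusters 0, 11, 15 and 16 joined as the class, the median was 0.30. No monocyte-like cluster arose at resolution 0.5. The neutrophil-like median (-0.71) stayed below 0 in all 15, of which the mean over suffixes again could not differ. It moved with median of ratios size factors (-0.37), TMM (-0.42) and the tenth of cells richest in markers (-0.44). The causes were not tested. The median pair correlation (0.086) was 0.054 thinned, 0.057 within clusters and 0.073 with no filter on cells. Single clusters, joined clusters with 10 or more monocyte markers, and other cells without cell cycle clusters were chosen after seeing the data. No paired analysis was possible because no suffix is tied to a sample. Depth limits Nlrc5 and, in the stages, H2-T23, Tap1 and Tap2.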

Other observations

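Clusters outside the named stages also differed in which members were high. Cluster 8 (329 cells, led by Gsn and Nfil3, with 5 raised stem and progenitor markers including Cd34 and Flt3) could be read in all 4 suffixes. Against the other cells of the same suffix, H2-T23 had a median log2 ratio of 1.12 there (range 0.90 to 1.55) and Tap2 0.82 (0.73 to 1.04), with B2m at 0.40 (0.34 to 0.47) and Psmb8 at 0.14 (0.05 to 0.23). The median over all measured genes was -0.0030 in that cluster.

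Cluster 0 (800 cells, led by Lpl and Wfdc17, read in suffixes 3 and 4) had H2-D1 at 0.56, H2-T23 at 0.97 and Tapbp at 0.59, with Psmb8 at -0.33 and Psmb9 at -0.16. Cluster 15 (149 cells, led by Cd74) had H2-D1 at 0.51 and H2-T23 at 0.90 with Tap1 at 0.28 and Tap2 at 0.30. The eosinophil-like cluster 10 (read in suffixes 3 and 4) had Tap1 at -0.91, Tap2 at -0.65, Psmb9 at -0.48 and B2m at -0.37, while Tapbp was at 0.11. These clusters were chosen after their values were seen.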
